A study of Mus musculus with 12 samples.

Results

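The genes described here encode proteins of the splicing machinery and of the main families of RNA-binding splicing factors. They were chosen by name, as the protein-coding genes whose symbol begins with Srsf, Hnrnp, Sf3a, Sf3b, Snrp or Prpf in the GENCODE annotation of GRCm38. The rule took 65 of the 55487 genes in the count table, of which 11 are Srsf genes, 20 Hnrnp genes, 9 Sf3a or Sf3b genes, 12 Snrp genes and 13 Prpf genes. Of these, 64 passed the filter on low counts, as did 16908 genes in all.

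The spliceosome removes introns from precursor messenger RNA. Its core particles, the small nuclear ribonucleoproteins (snRNPs), carry a ring of Sm proteins, or of Sm-like proteins in the case of U6, on a small RNA, and SF3a and SF3b hold the U2 particle at the branch point of the intron. SR proteins and hnRNP proteins bind exons and introns and decide which splice sites are used, and many SR protein genes limit their own output by splicing in an exon that sends the transcript to nonsense-mediated decay.

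Microglia, the resident macrophages of the brain, were sorted at postnatal day 13 from YARG mice, in which YFP sits downstream of the stop codon of Arg1 and reports the arginase locus. CX3CR1+ CD206- cells from tissue of the basal forebrain and striatum were divided by YFP into ARG1+ and ARG1- microglia, separately for female and male mice, with 3 libraries for each of the 4 groups. All groups carried the reporter allele, and each library held cells of several pooled mice. The study used 3 litters of each sex, but the labels do not say which libraries share a litter.

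Total counts ranged from 28356659 to 60625170 per library. The values below are CPM, a gene's counts scaled to the TMM-normalized total of the library, and log2 FC is the log2 fold change of ARG1+ over ARG1- microglia, followed by ± and its standard error (SE). Each gene was tested in edgeR's quasi-likelihood fit of the 12 libraries, with sex as a second term, and p was adjusted by Benjamini-Hochberg over all 16908 genes, with a limit of 0.05. Across all genes tested the median log2 fold change was 0.06. The summed level of 10 microglia markers, P2ry12 and Tmem119 among them, was 48507 to 64347 CPM in ARG1- and 38179 to 49033 CPM in ARG1+ libraries, with 7 of the 10 lower and Sall1 higher in ARG1+ microglia. Transcripts of ribosomal protein genes took 0.614% to 0.756% of counts in ARG1- and 0.351% to 0.474% in ARG1+ libraries, without overlap. The share of the mitochondrial genome was 0.247% to 0.636% and 0.147% to 0.396%. In these bulk libraries, fewer cells of a type and less RNA per cell cannot be told apart.

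Of the 64 splicing factor genes tested, 14 (21.9%) were lower in ARG1+ microglia, against 9.42% of all genes, and 4 (6.25%) were higher, against 6.44% of all genes. All 6 ARG1+ libraries lay below all 6 ARG1- libraries for 10 of the 64 (15.6%, against 6.56% of all genes) and above them for 2 (3.12%, against 3.48%). The lower genes were 6 of the 12 Snrp genes, 3 of the 9 SF3 genes, 3 of the 20 Hnrnp genes and 2 of the 13 Prpf genes, and no Srsf gene. The higher genes were 2 of the 10 Srsf genes tested, 1 Hnrnp gene and 1 Prpf gene. The median log2 fold change was -0.71 for Snrp, -0.19 for SF3, -0.03 for Hnrnp, 0.06 for Prpf and 0.06 for Srsf genes, beside 0.06 for all genes tested.

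**Figure D1:**
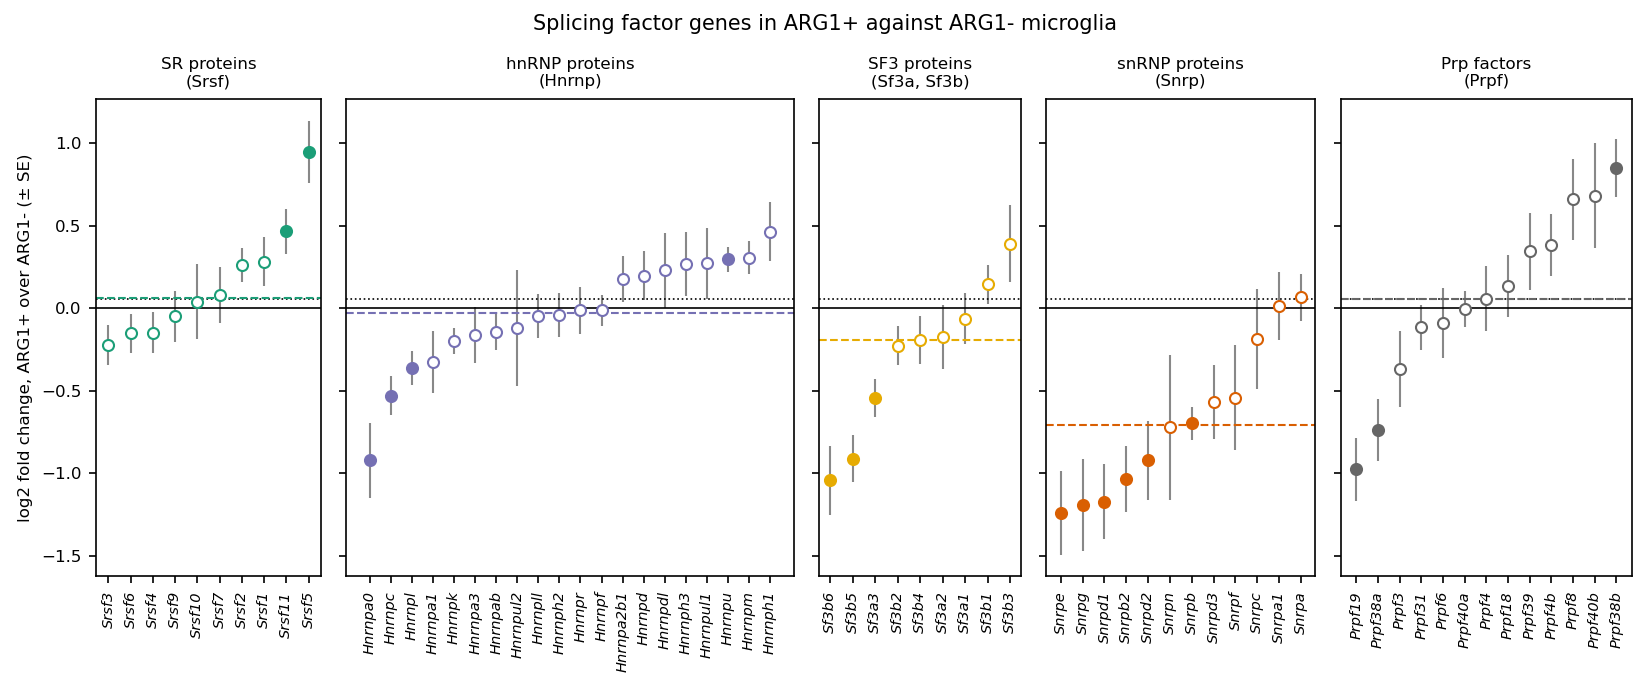
Log2 fold change of each tested gene, ARG1+ over ARG1-, with its SE, ordered within each family. Filled points passed the adjusted limit of 0.05, open points did not, the dashed line is the family's median and the dotted line the median of all genes tested (0.06). The Snrp median lies at -0.71 and the other family medians between -0.19 and 0.06.

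The Sm ring is built from 7 proteins, encoded by Snrpb, Snrpd1, Snrpd2, Snrpd3, Snrpe, Snrpf and Snrpg, and all 7 were fitted lower in ARG1+ microglia, 5 of them past the limit. The summed level of the 7 ring genes was 313 to 433 CPM (median 378) in ARG1- and 181 to 264 CPM (median 216) in ARG1+ libraries. The 2 ranges of the sum do not overlap, and Snrpb gave most of the sum in both populations. The median log2 fold change of the 7 was -0.92.

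Snrpe, whose product is SmE, had 14.3 CPM in the lowest, 23.9 in the median and 25.3 in the highest ARG1- library, and 5.21, 9.13 and 12.8 CPM in ARG1+ libraries. The 2 ranges are apart, and the level was 2.36-fold lower in ARG1+ microglia (log2 FC -1.24 ± 0.25, adjusted p = 0.00668). Snrpg, which encodes SmG, was low in all libraries, with 7.20, 8.33 and 11.2 CPM in ARG1- and 2.63, 3.20 and 6.07 CPM in ARG1+ libraries. Every ARG1+ library again lay below every ARG1- library (log2 FC -1.19 ± 0.28, adjusted p = 0.0126).

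Snrpd1, for SmD1, ranged from 17.1 to 33.2 CPM with a median of 24.4 in ARG1- and from 7.37 to 14.02 CPM with a median of 9.88 in ARG1+ libraries. These ranges are apart as well (log2 FC -1.17 ± 0.23, adjusted p = 0.00535). Snrpd2, for SmD2, stood at 7.08, 10.5 and 12.5 CPM in the lowest, median and highest ARG1- library and at 3.98, 5.14 and 7.82 CPM in the ARG1+ libraries. Its populations overlapped, and it passed the limit (log2 FC -0.92 ± 0.24, adjusted p = 0.0218), which it kept in 7 of the 12 fits that leave out 1 library. Without library 2, 8, 12, 15 or 16 (numbered as in the sample labels) its adjusted p was 0.0518 to 0.0637.

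Snrpb encodes SmB and was the Snrp gene with the highest level per length of exon. It had 234, 259 and 318 CPM in the lowest, median and highest ARG1- library and 142, 161 and 192 CPM in the ARG1+ libraries. The populations did not overlap, and it had the smallest p of all 64 genes (log2 FC -0.70 ± 0.10, adjusted p = 0.00111).

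The remaining ring genes did not pass the limit. Snrpd3 had a median of 38.8 CPM in ARG1- and 25.7 CPM in ARG1+ libraries (log2 FC -0.57 ± 0.22, adjusted p = 0.111), and Snrpf medians of 5.95 and 4.07 CPM (log2 FC -0.54 ± 0.32, adjusted p = 0.290). Exons of other genes overlap 85.4% of the annotated exon length of Snrpf, so its counts are uncertain.

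Outside the ring, Snrpb2, the U2 protein B'', had 36.9, 63.1 and 76.1 CPM in the lowest, median and highest ARG1- library and 18.2, 31.2 and 35.6 CPM in the ARG1+ libraries. Its highest ARG1+ library stayed below its lowest ARG1- library (log2 FC -1.03 ± 0.20, adjusted p = 0.00508). The other Snrp genes for proteins particular to U1 and U2 gave no call. Snrpa (U1 A) had a log2 FC of 0.07 ± 0.14 (adjusted p = 0.804), Snrpa1 (U2 A') of 0.01 ± 0.21 (adjusted p = 0.980) and Snrpc (U1 C) of -0.19 ± 0.30 (adjusted p = 0.736). Snrpn, the imprinted gene for a copy of SmB, had the largest change of the family without a call (log2 FC -0.72 ± 0.44, adjusted p = 0.306) at medians of 3.65 and 2.53 CPM, and 44.1% of its exon length is shared with other annotated genes, Snurf among them.

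**Figure D2:**
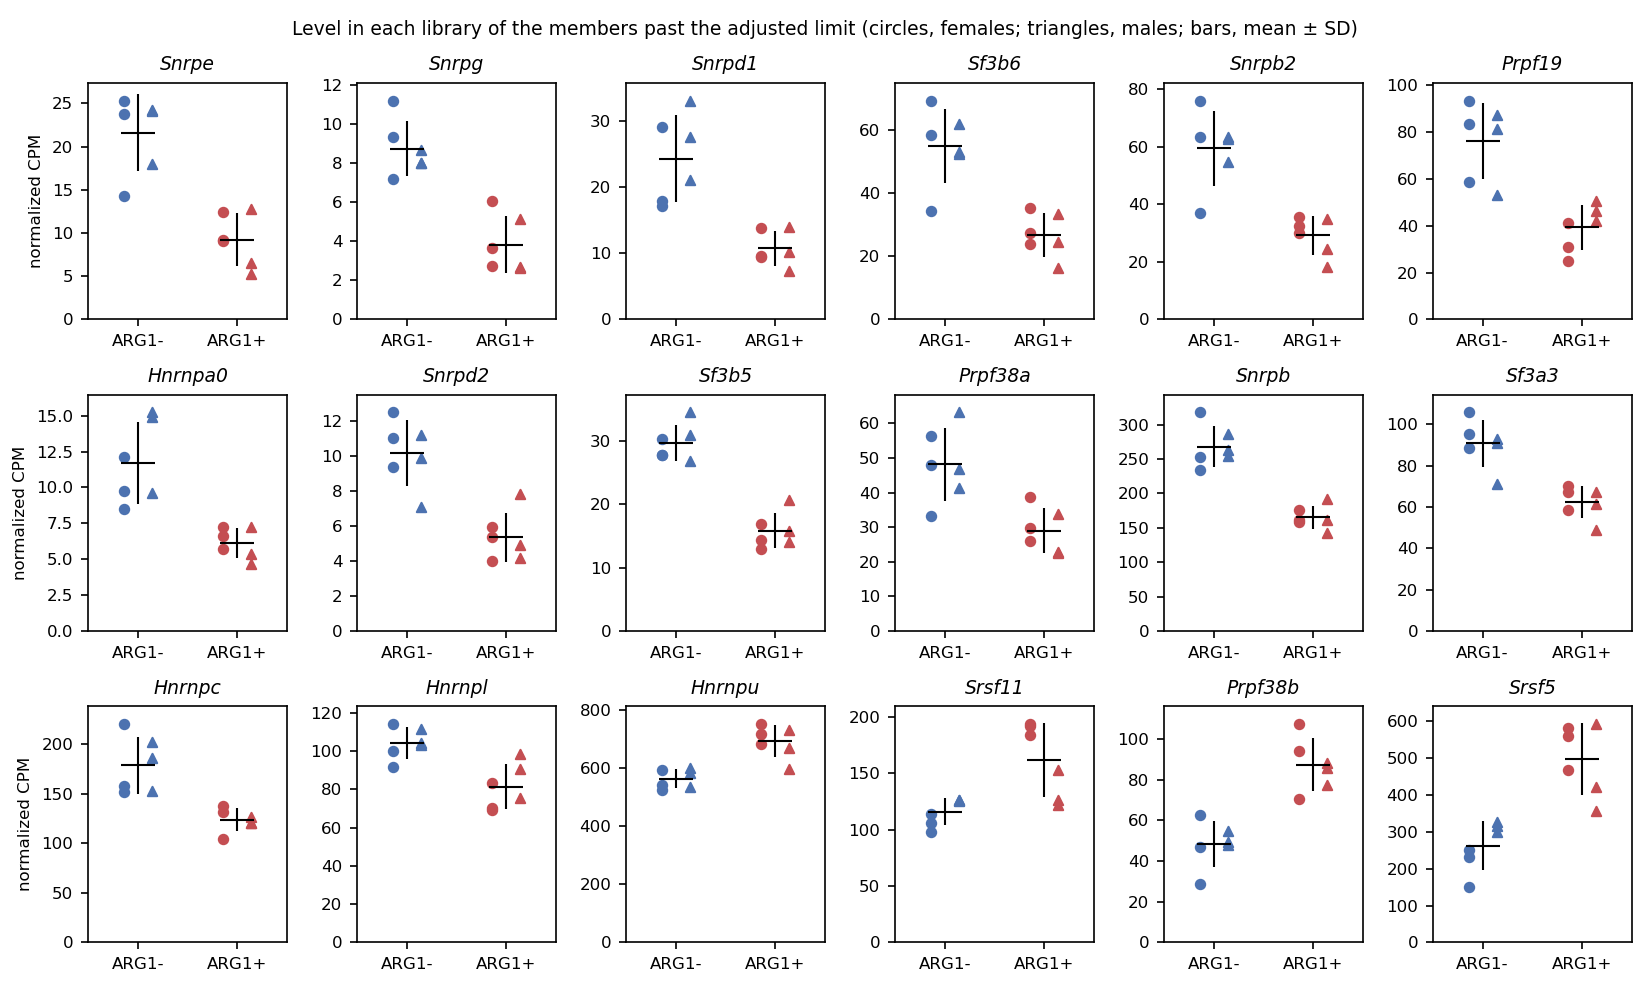
Normalized CPM in each library of the 18 genes past the adjusted limit, ordered from the most negative to the most positive fold change, with ARG1- libraries in blue and ARG1+ libraries in red, females as circles, males as triangles, and the mean with its SD over 6 libraries in black. Each axis starts at 0. The populations do not overlap for 10 of the 14 lower and 2 of the 4 higher genes.

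SF3a and SF3b are the U2 subcomplexes that contact the branch point. Sf3b5, one of the smallest subunits of SF3b, ranged from 26.9 to 34.6 CPM with a median of 29.0 in ARG1- and from 12.97 to 20.7 CPM with a median of 15.1 in ARG1+ libraries. The populations were apart (log2 FC -0.91 ± 0.14, adjusted p = 0.00171). Sf3b6, which encodes the subunit p14 that reaches the branch point itself, had 34.4, 55.7 and 69.2 CPM in the lowest, median and highest ARG1- library and 16.2, 25.9 and 35.1 CPM in ARG1+ libraries. The lowest ARG1- and highest ARG1+ library just overlapped (log2 FC -1.04 ± 0.21, adjusted p = 0.00632).

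Sf3a3, for the SF3a subunit SF3A60, had 71.2, 91.9 and 106 CPM in ARG1- and 49.0, 64.2 and 70.0 CPM in ARG1+ libraries. The ranges were apart by a small gap (log2 FC -0.54 ± 0.11, adjusted p = 0.00718). The large subunits gave no call. Sf3b1, the scaffold of SF3b, had medians of 648 and 717 CPM and a log2 FC of 0.14 ± 0.12 (adjusted p = 0.470), and Sf3b3 had the largest change without a call in this family (log2 FC 0.39 ± 0.23, adjusted p = 0.300). The sum over the 9 SF3 genes, to which Sf3b1 gave the most counts, was 1103 to 1449 CPM in ARG1- and 1083 to 1366 CPM in ARG1+ libraries.

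The Prpf genes encode factors of the U4/U6.U5 particle, the U1 particle and the complexes that activate the spliceosome, and they went both ways. Prpf19, the ubiquitin ligase at the heart of a complex that activates the spliceosome, had 53.2, 82.3 and 93.4 CPM in the lowest, median and highest ARG1- library and 24.9, 41.6 and 50.3 CPM in ARG1+ libraries. All ARG1+ libraries lay below all ARG1- libraries (log2 FC -0.98 ± 0.19, adjusted p = 0.00564). Prpf38a, which enters with the precursor of the active spliceosome, stood at 33.3, 47.4 and 63.3 CPM in ARG1- and 22.6, 27.9 and 38.8 CPM in ARG1+ libraries. Its ranges overlapped (log2 FC -0.74 ± 0.19, adjusted p = 0.0208), and its adjusted p was 0.0519 to 0.0728 without library 2, 7, 8, 12, 14 or 16.

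Prpf38b, a paralog of Prpf38a with an arginine- and serine-rich tail, was higher in ARG1+ microglia. It had 28.5, 48.6 and 62.8 CPM in the lowest, median and highest ARG1- library and 70.3, 87.0 and 108 CPM in ARG1+ libraries. The populations did not overlap (log2 FC 0.85 ± 0.18, adjusted p = 0.00710). The Prpf gene with the highest level per length, Prpf6, a bridge between U5 and U4/U6, had medians of 78.8 and 74.3 CPM (log2 FC -0.09 ± 0.21, adjusted p = 0.825). Prpf40b, a U1-associated factor, had the largest change without a call (medians of 10.01 and 20.3 CPM, log2 FC 0.68 ± 0.32, adjusted p = 0.179).

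Promoters of genes from both directions are shown here because Snrpb2 and Sf3b6 were among the lower genes and Srsf5 and Prpf38b among the higher ones. They are the RefSeq windows of GRCm38.p6 from 250 bases before to 50 after the transcription start, read along the gene's strand, for the genes of smallest p in each direction that have 1 window in the table. Capitals mark CCGGAA on either strand (TTCCGG when read from the other one), the core of sites bound by ETS factors. The windows are chr2:143062819-143063118 on the plus strand for Snrpb2, chr12:4817358-4817657 on the plus strand for Sf3b6, chr12:80945249-80945548 on the plus strand for Srsf5 and chr3:108911680-108911979 on the minus strand for Prpf38b.
Snrpb2: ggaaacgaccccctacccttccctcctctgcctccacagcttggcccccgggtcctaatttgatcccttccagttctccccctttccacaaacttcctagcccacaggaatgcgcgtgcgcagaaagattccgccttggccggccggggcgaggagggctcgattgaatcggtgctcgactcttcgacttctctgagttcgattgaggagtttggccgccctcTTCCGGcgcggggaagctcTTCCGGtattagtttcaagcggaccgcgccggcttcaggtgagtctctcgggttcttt
Sf3b6: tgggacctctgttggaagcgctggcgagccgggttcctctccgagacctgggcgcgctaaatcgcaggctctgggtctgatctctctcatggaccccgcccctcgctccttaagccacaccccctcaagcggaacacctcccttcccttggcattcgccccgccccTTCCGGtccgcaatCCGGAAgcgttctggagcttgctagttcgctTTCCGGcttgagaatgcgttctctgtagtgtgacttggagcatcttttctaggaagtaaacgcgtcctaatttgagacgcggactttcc
Srsf5: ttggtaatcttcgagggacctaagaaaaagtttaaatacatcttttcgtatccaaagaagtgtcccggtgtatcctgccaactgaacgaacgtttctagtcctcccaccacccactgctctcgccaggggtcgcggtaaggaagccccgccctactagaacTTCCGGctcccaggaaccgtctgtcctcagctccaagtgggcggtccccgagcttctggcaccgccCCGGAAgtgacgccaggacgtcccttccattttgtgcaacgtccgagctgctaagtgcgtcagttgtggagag
Prpf38b: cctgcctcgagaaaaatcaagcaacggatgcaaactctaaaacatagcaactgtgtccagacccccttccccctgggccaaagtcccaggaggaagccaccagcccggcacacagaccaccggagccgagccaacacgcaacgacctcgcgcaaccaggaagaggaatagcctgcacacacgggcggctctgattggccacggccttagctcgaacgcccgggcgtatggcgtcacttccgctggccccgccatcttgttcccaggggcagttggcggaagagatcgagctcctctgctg
Snrpb2 holds 2 matches, Sf3b6 3, Srsf5 2 and Prpf38b 0. Of the 57 splicing factor genes with a window, 31 (54.4%) held the ETS core in at least 1 window, against 16.7% of the 27025 genes in the table. These 27025 genes were not limited to the 16908 that passed the filter on low counts. Of the 65 splicing factor genes 64 passed it, so the sets compared are unlike, here and for the motifs below. The ETS core was in 7 of the 11 lower and 3 of the 4 higher genes with a window. The GC box GGGCGG was in 39 of the 57 (68.4%, against 38.2%), the CCAAT box, searched as CCAAT, in 29 (50.9%, against 41.1%) and the TATA box, searched as TATAAA, in 7 (12.3%, against 15.7%), each on either strand. The TATA box was in 0 of the 11 lower and 0 of the 4 higher genes. The matches were found in both directions of change.

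hnRNP proteins coat new transcripts and often hold exons back. Hnrnpc, which binds runs of uridine, ranged from 152 to 221 CPM with a median of 172 in ARG1- and from 105 to 138 CPM with a median of 124 in ARG1+ libraries. The populations did not overlap (log2 FC -0.53 ± 0.12, adjusted p = 0.0105). Hnrnpa0, a low member of the A/B group, had 8.52, 10.9 and 15.3 CPM in the lowest, median and highest ARG1- library and 4.64, 6.13 and 7.27 CPM in ARG1+ libraries. It was apart in all libraries too (log2 FC -0.92 ± 0.23, adjusted p = 0.0163), with an adjusted p of 0.0501 and 0.0547 when library 12 or 16 was left out.

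Hnrnpl, which binds CA repeats, had 91.5, 104 and 114 CPM in ARG1- and 69.4, 79.5 and 98.5 CPM in ARG1+ libraries. These ranges overlapped (log2 FC -0.36 ± 0.10, adjusted p = 0.0328), and 8 of the 12 fits that leave out 1 library (1, 2, 6, 7, 8, 14, 15 or 16) ended its call, with an adjusted p of 0.0510 to 0.104. Hnrnpu, a nuclear matrix protein that also acts on splicing, was higher in ARG1+ microglia by a small margin. It had 524, 562 and 600.1 CPM in the lowest, median and highest ARG1- library and 598, 700 and 752 CPM in ARG1+ libraries, with an overlap of 1 library from each side (log2 FC 0.30 ± 0.08, adjusted p = 0.0196).

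The other 16 Hnrnp genes gave no call, with log2 fold changes between -0.32 (Hnrnpa1, SE 0.19, adjusted p = 0.277) and 0.46 (Hnrnph1, SE 0.18, adjusted p = 0.103). Hnrnpk, the Hnrnp gene with the highest level per length, had medians of 894 and 765 CPM (log2 FC -0.20 ± 0.08, adjusted p = 0.104). Several of these genes have processed pseudogenes or close paralogs. Of all 75-base words in their transcripts, 39.0% for Hnrnpf, 27.0% for Hnrnpa1, 26.1% for Hnrnpa3, 11.7% for Hnrnpk and 11.1% for Hnrnph2 also occur in transcripts of other annotated genes, and 38.1% for Sf3b4 and 18.8% for Snrpf outside the family. Reads of 75 bases from these words have no unique origin, so the levels of these genes are uncertain. For the called genes this share was at most 9.78% (Snrpg).

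SR proteins bind exonic enhancers and recruit the U1 and U2 particles. Srsf5 (SRp40) had the largest increase of all 64 genes. It had 150, 274 and 325 CPM in the lowest, median and highest ARG1- library and 357, 514 and 593 CPM in ARG1+ libraries. The populations did not overlap, and the level was 1.93-fold higher in ARG1+ microglia (log2 FC 0.95 ± 0.19, adjusted p = 0.00576).

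Srsf11 (p54), which acts with U2AF, had 97.6, 120 and 127 CPM in ARG1- and 122, 168 and 194 CPM in ARG1+ libraries. The ranges overlapped (log2 FC 0.47 ± 0.14, adjusted p = 0.0376), and without library 1, 2, 7, 8, 12, 13 or 15 the adjusted p was 0.0670 to 0.0919. The other 8 Srsf genes tested gave no call, with log2 fold changes from -0.22 (Srsf3, SE 0.12, adjusted p = 0.251) to 0.28 (Srsf1, SE 0.15, adjusted p = 0.239). Srsf9, the highest of the family per length over both populations, had medians of 178 and 173 CPM (log2 FC -0.05 ± 0.15, adjusted p = 0.870). Srsf12 failed the filter. It had 3 counts in 1 ARG1- library, 29 counts in 1 ARG1+ library and 0 in the other 10.

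The summed level of the 11 Srsf genes was 1314 to 1811 CPM in ARG1- and 1558 to 2157 CPM in ARG1+ libraries, with overlap. In the annotation, 9 of the 11 Srsf genes carry at least 1 transcript marked for nonsense-mediated decay, as do all 4 of the higher and 3 of the 14 lower splicing factor genes. The share was 47.7% of the 65 genes and 29.1% of all protein-coding genes tested. A transcript with a retained intron is annotated for all 4 higher and 9 of the 14 lower genes. That share was 72.3% of the 65 genes and 57.6% of all protein-coding genes tested. The median exon length was 7.70 kb for the higher and 2.82 kb for the lower genes. Counts are per gene, so spliced, intron-retaining and decay transcripts are added together in every value given here.

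Levels of different genes are comparable only per length. Per kilobase of merged exons, the highest splicing factor genes in ARG1- microglia were Hnrnpk with 140 CPM per kb, Snrpb with 136 and Srsf9 with 111. In ARG1+ microglia they were Srsf5 with 125, Hnrnpk with 122 and Srsf9 with 107, and Snrpb stood at 83.6 CPM per kb. The SDs over 6 libraries were 15.1 and 8.46 CPM per kb for Snrpb and 16.6 and 24.2 CPM per kb for Srsf5 in ARG1- and ARG1+ microglia. The lowest gene tested in both populations was Snrpc, with 0.794 and 0.698 CPM per kb. The merged exons of a gene are longer than its main transcript, which lowers these values unevenly between genes.

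**Figure D3:**
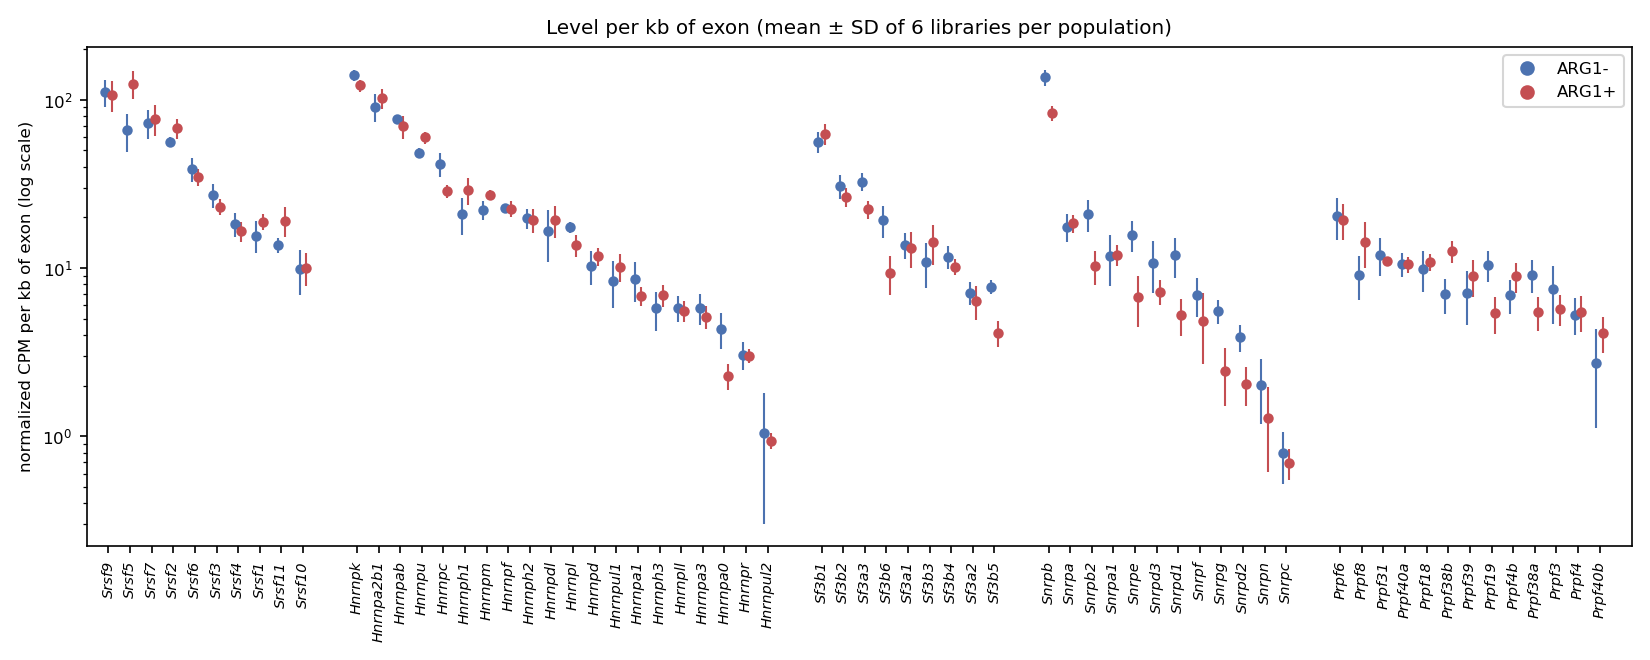
Normalized CPM per kb of merged exon on a log scale, as mean and SD of 6 ARG1- (blue) and 6 ARG1+ (red) libraries, for the 64 tested genes ordered by level within each family. Hnrnpk, Snrpb, Srsf9, Srsf5 and Hnrnpa2b1 lie above 100 CPM per kb in at least 1 population, and Snrpc and Hnrnpul2 near 1.

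Across all protein-coding genes, short genes were called lower in ARG1+ microglia more often than long ones. Among the 3168 tested protein-coding genes in the shortest of 4 equal classes of exon length (up to 2.72 kb), 26.1% were called lower and the median log2 fold change was -0.38. In the longest class (above 6.71 kb), 14.1% were called higher and the median was 0.31. Of the splicing factor genes, 11 were in the shortest class, with 6 called lower (5 of them Sm ring genes, the other Hnrnpa0) and a median of -0.72. The longest class held 19, with 3 called higher, 1 called lower and a median of 0.20. The next-shortest class held 17, with 5 called lower and 1 higher, against 12.1% and 3.66% of all protein-coding genes in it. The next-longest class also held 17, with 2 called lower and 0 higher, against 5.50% and 6.70%. The Spearman correlation of fold change and exon length, given as a description over genes of the same libraries, was 0.56 over the 64 genes and 0.38 over all 12664 protein-coding genes.

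When the dependence of each library on exon length and GC content was fitted and removed, all 14 lower genes stayed past the limit and the Snrp median was -0.62. Of the higher genes, Srsf5 (0.97, adjusted p = 6.93e-04) and Prpf38b (0.77, adjusted p = 0.00417) stayed. Hnrnpu (0.06, adjusted p = 0.680) and Srsf11 (0.27, adjusted p = 0.164) did not. Hnrnpk (-0.30, adjusted p = 0.0426), Srsf3 (-0.35, adjusted p = 0.0156) and Hnrnph1 (0.41, adjusted p = 0.0260) gained a call in that fit. The correlation with length over the 64 genes was still 0.38 after the removal.

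**Figure D4:**
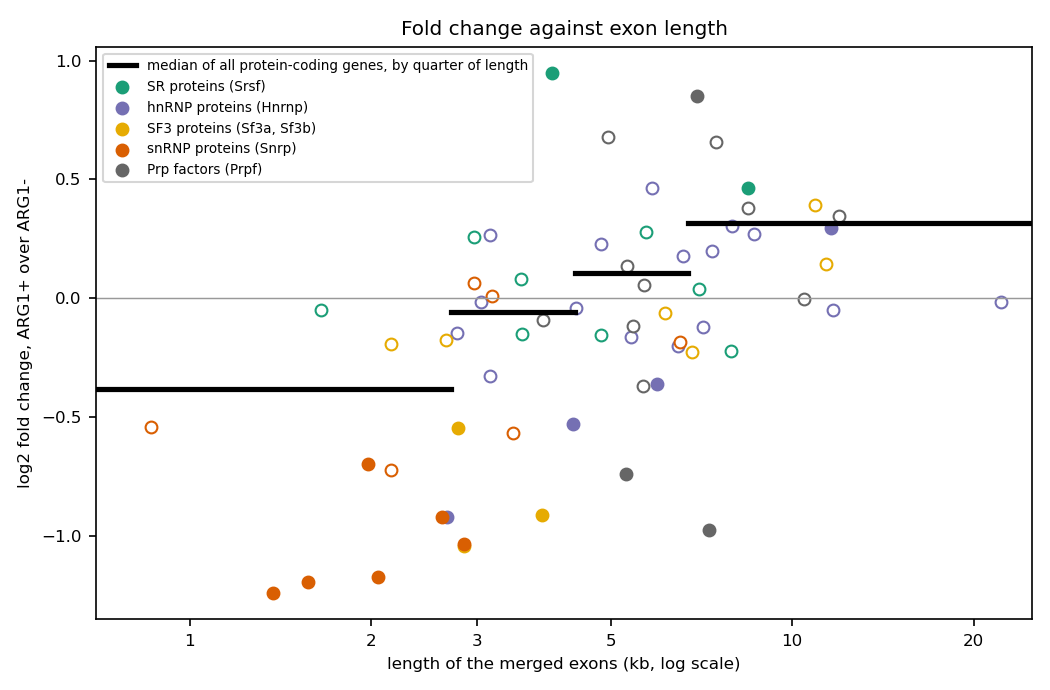
Log2 fold change, ARG1+ over ARG1-, against the length of the merged exons (kb, log scale) for the 64 genes, coloured by family, filled where they passed the adjusted limit. Black lines are the medians of all tested protein-coding genes in the 4 classes of length, from -0.38 to 0.31. The called Sm ring genes lie below the line of the shortest class.

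Within each sex, all 14 lower and all 4 higher genes had the same sign in females alone as in males alone. These genes were called from the same 12 libraries, so this agreement is not independent support. For Srsf11 the ARG1- and ARG1+ ranges overlapped in males and were apart in females, as its values below show. Of the 46 genes without a call, 23 had the same sign in both sexes. The Sm ring median was -0.95 in females and -0.84 in males. Unadjusted p was under 0.05 for 12 of the 14 lower genes in females and for 12 in males, with 6 libraries in each fit. It was under 0.05 for all 4 higher genes in females and for 2 in males. Of the 46 genes without a call, 11 reached it in females and 1 in males. The share of all genes at that level is not given here. Adjusted over all genes, 6 splicing factor genes passed in females, where 467 of all 15328 genes tested were higher and 519 lower. In males 0 passed, where only 1 gene of all 15356 passed. For the Srsf genes the medians were 0.44 in females and -0.08 in males, beside 0.02 and -0.14 for all 64 genes.

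No splicing factor gene differed between females and males in ARG1- microglia (0.0946% of all genes did) or in ARG1+ microglia (0.0355%), and none differed in its sex effect between the populations (0.00%), at the adjusted limit of edgeR's quasi-likelihood test. Unadjusted p was under 0.05 for 3 of the 64 in ARG1- microglia (4.69%, against 10% of all genes), for 3 in ARG1+ microglia (4.69%, against 3.12%) and for 8 in the interaction (12.5%, against 9.32%), 5 of them Srsf genes. DESeq2's Wald test, run as an alternative, called 1 gene, Srsf11, in ARG1+ microglia and in the interaction.

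Srsf11 had the smallest p of the 64 genes in ARG1+ microglia and in the interaction. ARG1- females had 97.6, 106 and 114 CPM and ARG1- males 125, 126 and 127 CPM. ARG1+ females had 184, 192 and 194 CPM and ARG1+ males 122, 126 and 153 CPM. Females were thus below males in ARG1- and above them in ARG1+ libraries, with no overlap in either population. The log2 difference, female minus male, was -0.25 ± 0.12 (adjusted p = 0.515) in ARG1- and 0.50 (SE 0.12, adjusted p = 1.0) in ARG1+ microglia, and the interaction was 0.76 ± 0.17 (adjusted p = 0.315) by the quasi-likelihood test and 0.80 (adjusted p = 5.49e-05) by DESeq2. In ARG1- microglia the smallest p was that of Srsf5, lower in females (150, 231 and 251 CPM) than in males (298, 316 and 325 CPM) without overlap (log2 difference -0.57 ± 0.21, adjusted p = 0.449).

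**Figure D5:**
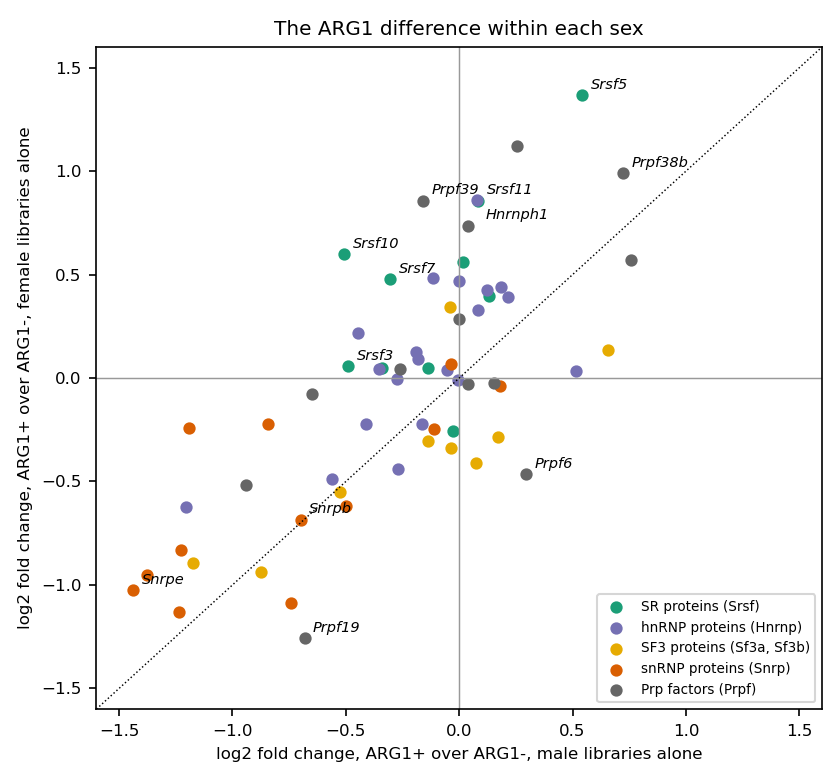
Log2 fold change of the 64 genes, ARG1+ over ARG1-, in the 6 female libraries (vertical axis) against the 6 male libraries (horizontal axis), coloured by family, with a dotted line where both are equal and some genes named. The 7 Sm ring genes have negative values in both sexes, and 9 of the 10 Srsf genes lie above the dotted line. In the fit of group means, the interaction was positive for 65.6% of the 64 genes and for 48.1% of all genes tested. None of the 64 passed the adjusted limit in the interaction.

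Other splicing genes, from 5 lists outside the symbol rule, were counted in the same fit. The lists were chosen with earlier results of these data known, so their shares beside those of all genes are a description only. Among 34 other proteins of the U1, U2, U5 and minor snRNPs, 5 were lower (14.7%, against 9.42% of all genes) and 4 higher (11.8%, against 6.44%). The lower genes were U2af1, which reads the splice site at the intron's end (log2 FC -0.91 ± 0.19, adjusted p = 0.00718), Puf60 (log2 FC -0.56 ± 0.12, adjusted p = 0.00801), Snrnp27, Ppih and Snrnp40, and the higher ones Snrnp70, the 70K protein of U1 (log2 FC 0.43 ± 0.11, adjusted p = 0.0225), Luc7l (log2 FC 0.74 ± 0.21, adjusted p = 0.0288), Cherp and Zrsr2. The median over this list was -0.01. With the length and GC trend removed, 5 of the list were lower and 0 higher, so that the 4 higher calls, Snrnp70 (0.27, adjusted p = 0.213) and Luc7l (0.56, adjusted p = 0.0886) among them, were lost.

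Among 22 Sm-like and SMN complex proteins, the latter of which load the Sm ring onto small RNAs, 8 were lower (36.4%, against 9.42% of all genes) and 1, Lsm11, higher (4.55%, against 6.44%), with a median of -0.36. Lsm11 did not pass the limit with the length and GC trend removed (adjusted p = 0.0608). Lsm4 had 40.4, 48.1 and 53.7 CPM in the lowest, median and highest ARG1- library and 19.1, 23.3 and 42.6 CPM in ARG1+ libraries (log2 FC -0.86 ± 0.19, adjusted p = 0.00896), and Lsm1, of the ring that acts in mRNA decay, had a log2 FC of -0.85 ± 0.19 (adjusted p = 0.0103). Clns1a, which holds Sm proteins for assembly, and Gemin7 of the SMN complex were also among the 8. Among 34 proteins of the catalytic steps, the activating Prp complex and the exon junction complex, 9 were lower (26.5%, against 9.42% of all genes) and 2, Pnn and Dhx8, higher (5.88%, against 6.44%), with a median of -0.21. Eif4a3, the helicase of the exon junction complex, was lower at -0.70 ± 0.09 (adjusted p = 6.42e-04) and Bud31 at -1.07 ± 0.15 (adjusted p = 0.00106), both without overlap between the populations. With the length and GC trend removed, 8 of this list were lower and 2 higher.

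Of 27 SR-related proteins and kinases that phosphorylate SR proteins, 7 were higher (25.9%, against 6.44% of all genes) and 2 lower (7.41%, against 9.42%), with a median of 0.43. Rsrp1, an arginine- and serine-rich protein, had 747, 1029 and 1366 CPM in the lowest, median and highest ARG1- library and 2097, 2638 and 3046 CPM in ARG1+ libraries. Its populations were apart (log2 FC 1.32 ± 0.15, adjusted p = 4.22e-04), as were those of Srrm1, a coactivator of splicing (log2 FC 1.11 ± 0.15, adjusted p = 9.35e-04). The other higher genes were Srrm2, Pnisr, Clk2, Son and Scaf4. The lower genes were Tra2b (log2 FC -0.83 ± 0.14, adjusted p = 0.00259) and Ddx39b (log2 FC -0.38 ± 0.12, adjusted p = 0.0483). With the length and GC trend removed, 6 of this list were higher and 2 lower.

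Of 40 other splicing regulators tested, 3 were higher (7.50%, near the 6.44% of all genes) and 0 lower (against 9.42%), with a median of 0.12. They were Celf1 (log2 FC 0.74 ± 0.13, adjusted p = 0.00347), Celf2 (log2 FC 0.62 ± 0.16, adjusted p = 0.0194) and Fubp1. After the length and GC trend was removed, 1 of the list was higher and 2 lower. Celf2 and Fubp1 did not pass the limit in that fit, and Mbnl1 (-0.45, adjusted p = 0.0170) and Matr3 (-0.52, adjusted p = 0.00230) did.

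Markers of other cells were measured beside these results. The summed level was 4.52 to 31.5 CPM in ARG1- and 2.32 to 12.2 CPM in ARG1+ libraries for 10 neuronal markers, 259 to 379 and 171 to 262 for 6 oligodendrocyte markers, 176 to 224 and 129 to 150 for 6 astrocyte markers, and 480 to 664 and 332 to 440 for 6 endothelial markers. It was 3.69 to 17.7 and 0 to 3.39 CPM for 5 erythroid markers, 5.05 to 14.1 and 1.89 to 6.70 for monocyte markers, and 120 to 144.5 and 119 to 253 for 8 border macrophage markers. Bsg gave most of the endothelial sum (442 to 607 CPM in ARG1- and 279 to 394 CPM in ARG1+ libraries). Slc1a3 gave most of the astrocyte sum (155 to 209 and 125 to 136 CPM), and Mrc1 most of the border macrophage sum (100 to 138 and 102 to 231 CPM). Most of the oligodendrocyte sum came from Cnp (171 to 240 and 114 to 143 CPM). In these 7 lists, 1 gene of each of the oligodendrocyte, astrocyte, endothelial, erythroid and monocyte lists was called lower and none higher, and no neuronal or border macrophage marker was called. The endothelial marker Cldn5 and the monocyte marker Chil3 had 0 counts in all libraries. Of 10 cell cycle genes 3 were lower (Mcm5, Pcna and Cdk1), and of 10 immediate early genes 2 were higher (Egr1 and Atf3). The part of these cells and programs, and of the share of ribosomal protein transcripts, in the results on splicing factor genes was not tested.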

How the data were processed

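Per the labels and the study's methods, RNA of sorted microglia (tissue of 3 to 5 mice per library) was made into full-length cDNA with SMART-Seq v4 and libraries with Nextera XT. The authors aligned the reads with STAR 2.6.1d to GRCm38 and deposited raw counts per gene from featureCounts 1.5.1, without normalization. All 12 columns were matched by name and 0 were left unused. The kit keeps no strand, so overlapping genes are uncertain. Replicates differed by more than sampling noise (chi-square per degree of freedom of 40.7 to 125), and each library was 1 replicate. P values measure the spread between libraries.

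Counts were analysed in R 4.3.3 with edgeR 4.0.16 (filterByExpr on 4 groups, TMM, glmQLFit, glmQLFTest, sex and ARG1 status as terms). Sex contrasts came from the 4 group means. The script was tested on simulated counts. Exon lengths, transcript types and 75-base words came from GENCODE M21, and promoters from RefSeq (57 of 65 symbols matched). Protein sequences were not analysed here, and a monocyte marker is not reported here. Alternatives were DESeq2 1.42.0 (size factors or Wald test), no filter, at least 10 counts in every library, ARG1 status alone, a term for libraries 13 to 16, removal of length and GC trends (mgcv 1.9.3), each sex alone and each library left out.

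Named genes were, per family, up to 3 of smallest p in each direction, the highest per length, the largest change without a call and those failing the filter, and per other list up to 2 in each direction. Remaining ring genes, U1 and U2 genes and other names beyond that rule were added after their values were seen. The genes and lists were chosen with earlier results of these data known. Counting intervals are not given, since amplified reads without molecular identifiers are not independent molecules.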

Additional observations from a re-analysis of the deposited data

Results flagged for a closer look

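The ARG1 difference of Srsf10, an SR protein that acts as a splicing repressor when dephosphorylated, had opposite directions in the sexes in every library. ARG1+ females had 80.8 to 86.3 CPM, above the 40.8 to 72.6 CPM of ARG1- females, while ARG1+ males had 44.4 to 66.5 CPM, below the 69.1 to 100.4 CPM of ARG1- males. The interaction was 1.09 on the log2 scale (SE 0.33), with an adjusted p of 0.456 by edgeR's quasi-likelihood test, so the difference did not pass the limit.

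The sex difference of Srsf11 changed direction between the populations in every library, with an interaction of 0.76 on the log2 scale (SE 0.17, adjusted p = 0.315 by edgeR's quasi-likelihood test). It did not pass the limit there and passed it by DESeq2's Wald test. No named gene had a library standing far from the other 5 of its population in the 48 sets of 6 searched, where chance gives about 1 in 20.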

How the results depend on the processing

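Of the 18 genes that passed the limit, 13 passed it in all 12 fits that leave out 1 library. These fits gave 14 to 19 genes in all, 3 to 5 higher and 10 to 15 lower, and 0 in each sex contrast and in the interaction. Over all genes, they gave 690 to 1116 higher and 1048 to 1553 lower, of 17725 to 18012 tested. Females alone gave 6 genes (3 lower), beside 467 higher and 519 lower of all 15328 genes tested. Males alone gave 0 in all, 0 higher and 0 lower. Each of these fits had 6 libraries. At least 10 counts in every library gave 7 higher genes and DESeq2's Wald test 8, against 4 in the report. Over all genes, 1282 of 11633 were higher with that filter and 2155 of 29671 by DESeq2, against 1089 of 16908 in the report. DESeq2's Wald test gave 1 gene in place of 0 in the sex contrast of ARG1+ microglia and 1 in place of 0 in the interaction. The cause was not tested. Over all genes, removal of the length and GC trends left 851 higher and 1632 lower genes.

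Fitted directions reversed only for named genes without a call. Srsf9 turned to 0.054 with length and GC trends removed and 0.050 in females alone, and lay between -0.14 and 0.061 in the fits that leave out 1 library, positive without library 6, 7, 12 or 16. Sf3b1 turned to -0.087 with length and GC trends removed and -0.043 in males alone. Prpf6 turned to 0.29 in males alone and lay between -0.22 and 0.066 in the fits that leave out 1 library, positive without library 7 or 13. Of the 504 log2 fold changes of 24 named genes under the alternatives, 434 kept direction and side of the limit. No paired analysis was possible because the populations share no replicate numbers in the labels.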
